A study of Rattus norvegicus with 12 samples.

Results

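The enzymes that conjugate, reduce and detoxify reactive compounds were examined in RNA from the ventral dentate gyrus of male rats. The members were 57 genes of the 17172 in the count files, taken by symbol: the numbered glutathione transferase (Gsta, Gstk, Gstm, Gsto, Gstp, Gstt and Gstz), glutathione peroxidase (Gpx) and peroxiredoxin (Prdx) genes, and 21 single genes for epoxide hydrolases, superoxide dismutases, catalase, thioredoxins, glutathione synthesis, microsomal transferases, heme oxygenases, Nqo1, Nfe2l2 and Keap1. Of these, 47 passed the filter on low counts and were tested among 11750 genes. No measured value entered the choice of members, but they were chosen with earlier results of these data known.

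The study used 4 groups of 3 libraries. Responders and non-responders were rats of the Flinders Sensitive Line (FSL), a rat line used as a model of depression, that drank L-acetyl-carnitine (LAC), carnitine with an acetyl group, in drinking water for 7 days (0.3% w/v, an estimated daily 210 mg/kg). FSL vehicle rats of the same line and rats of the Flinders Resistant Line (FRL), its control line, drank tap water. Both lines derive from Sprague-Dawley rats. All 12 libraries are labelled as biological replicates. The sources used here do not give the measure that parted responders from non-responders, the age of the animals or the number of animals behind a library. The vehicle rats of the FSL line carry no response label, so differences that existed before LAC and differences that came with it cannot be told apart.

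Glutathione is made from glutamate, cysteine and glycine by glutamate-cysteine ligase and glutathione synthase. Transferases attach it to electrophiles, peroxidases use it to reduce peroxides, and glutathione reductase restores it. Epoxide hydrolases open reactive epoxides, superoxide dismutases and catalase remove superoxide and hydrogen peroxide, and peroxiredoxins draw on the thioredoxin system. Many of these genes are induced by the transcription factor Nrf2, encoded by Nfe2l2, which Keap1 holds at a low level in resting cells. In brain, much of the glutathione supply rests on astrocytes, and several detoxifying enzymes are most abundant in the blood vessels, meninges and choroid plexus.

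Counts in genes summed to between 5905387 and 8137618 per library. Values are CPM, which are counts scaled to library size with TMM factors, and a floor of 3 counts equalled 0.368 to 0.511 CPM. The dentate granule neuron marker Prox1 was detected in all libraries but was low in FRL vehicle 2 and responder 1, at 10.4 and 9.19 CPM. C1ql2 was low in the same libraries (4.53 and 3.31 CPM), while Calb1 was not (120 and 192 CPM). The 8 choroid plexus markers summed to 9.67 to 47.9 CPM in responders, 18.5 to 6090 CPM in non-responders, 36.8 to 3230 CPM in FSL vehicle and 11.5 to 24.8 CPM in FRL vehicle. The 10 meningeal and fibroblast markers summed to 92.0 to 230 CPM in responders, 336 to 605 CPM in non-responders, 246 to 2730 CPM in FSL vehicle and 168 to 342 CPM in FRL vehicle. In such bulk tissue, fewer cells of a type and less RNA per cell cannot be told apart.

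Ephx2 and Gstm4 fell in the FSL line. Against FRL vehicle, the mean of the 3 FSL-line groups was 4.97-fold lower for Ephx2 and 1.51-fold lower for Gstm4, and these were the members called among 47 (edgeR quasi-likelihood, Benjamini-Hochberg adjusted p under 0.05; 0.162% of all genes tested were called). At an unadjusted p under 0.05 there were 10 members, 8 higher and 2 lower (6.66% of all genes, 3.8% higher and 2.86% lower). With the means of the meningeal and of the choroid plexus markers as covariates, or without FRL vehicle 2 and responder 1, 6 members passed (4 higher, 2 lower). Of all genes, 3.88% and 3.49% passed in these settings, in that order. This contrast holds treated libraries, so line and treatment are mixed in it. Between the untreated groups, FSL vehicle against FRL vehicle, 0 members were called by edgeR (0.0681% of all genes) and 3 of 47 by DESeq2 (1.32% of the genes it adjusted). At an unadjusted p under 0.05, 11 members passed in that comparison, 9 higher and 2 lower in FSL vehicle, or 23.4% of members against 13.9% of all genes. Of all genes, 9.35% were higher and 4.53% lower at that level. The meningeal and fibroblast markers differed between the same groups, 8 of the 8 tested being higher in FSL vehicle at an unadjusted p under 0.05. The 11 members became 6 (4 higher, 2 lower) with the meningeal marker mean as a covariate, 4 (1 higher, 3 lower) with the choroid plexus mean as well, and 15 (8 higher, 7 lower) without FSL vehicle 2. Over all genes, 5.7%, 3.46% and 21.6% passed in these settings, in that order. With all libraries and no covariate, the median log2 fold change of the members was 0.03, beside -0.01 for all genes tested.

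Comparisons of the LAC groups with FSL vehicle and with each other called 0 members by edgeR. Responders against FSL vehicle had 11 members at an unadjusted p under 0.05, 3 higher and 8 lower in responders (23.4% of members against 13.8% of all genes; of all genes 4.61% higher and 9.17% lower), with 3 of 48 called by DESeq2 (1.44% of the genes it adjusted). These 11 became 4 (3 higher, 1 lower) with the meningeal covariate, 2 (1 in each direction) with both covariates, 17 (10 higher, 7 lower) without FSL vehicle 2, 4 (0 higher, 4 lower) without FSL vehicle 3 and 7 (1 higher, 6 lower) without responder 3 or in the compared groups only. Over all genes, 5.24%, 4.32%, 25.1%, 5.38%, 9.84% and 7.97% passed in these settings, in that order. The larger number of lower members thus differed between settings, and the share of all genes moved as well. Non-responders against FSL vehicle had 4 such members, 1 higher and 3 lower (4.21% of all genes, 1.89% higher and 2.32% lower), with 0 called by DESeq2. These 4 became 8 (1 higher, 7 lower) without FSL vehicle 1, 4 (3 higher, 1 lower) without FSL vehicle 2, 0 without FSL vehicle 3, 3 (all higher) without non-responder 1, 1 without non-responder 2 and 3 (2 higher, 1 lower) without non-responder 3. Over all genes, 10%, 9.78%, 2.7%, 3.31%, 3% and 3.35% passed in these settings, in that order. The 4 members became 2 with the replicate block (1 in each direction over all groups, both lower in the 2 groups alone). With the block, 4.09% of all genes passed over all groups and 4.74% in the 2 groups alone. Responders against non-responders had 5, 1 higher and 4 lower (3.14% of all genes, 1.18% higher and 1.96% lower), with 0 called by DESeq2. These 5 became 2 (1 in each direction) without non-responder 1, without non-responder 2 or with the meningeal covariate, and 3 (1 higher, 2 lower) without responder 1 or 3 or with the replicate block. In the same order, these settings had 2.9%, 2.61%, 4.36%, 2.3%, 3.14% and 3.05% of all genes. The groups did not overlap for 10 members in responders against FSL vehicle (12.5% of all genes). Over all genes, edgeR called 0 in each of these 3 comparisons (0%), while DESeq2 called 178 in responders against FSL vehicle, 2 in non-responders against FSL vehicle and 0 between the LAC groups. The comparisons share libraries: FSL vehicle stands in both of the first 2 and FRL vehicle in every comparison of lines.

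Each LAC group was also set against FRL vehicle, which joins line and treatment. Non-responders had 10 members at an unadjusted p under 0.05, 8 higher and 2 lower (5.24% of all genes, 3.15% higher and 2.09% lower). With both marker covariates they had 4, with 2 in each direction (4.18% of all genes). Responders had 4, with 2 in each direction (3.58% of all genes, 1.9% higher and 1.69% lower). Groups did not overlap for 10 members in FSL vehicle (13.8% of all genes), 10 in non-responders (13.5%) and 8 in responders (10.3%), each against FRL vehicle.

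**Figure D1:**
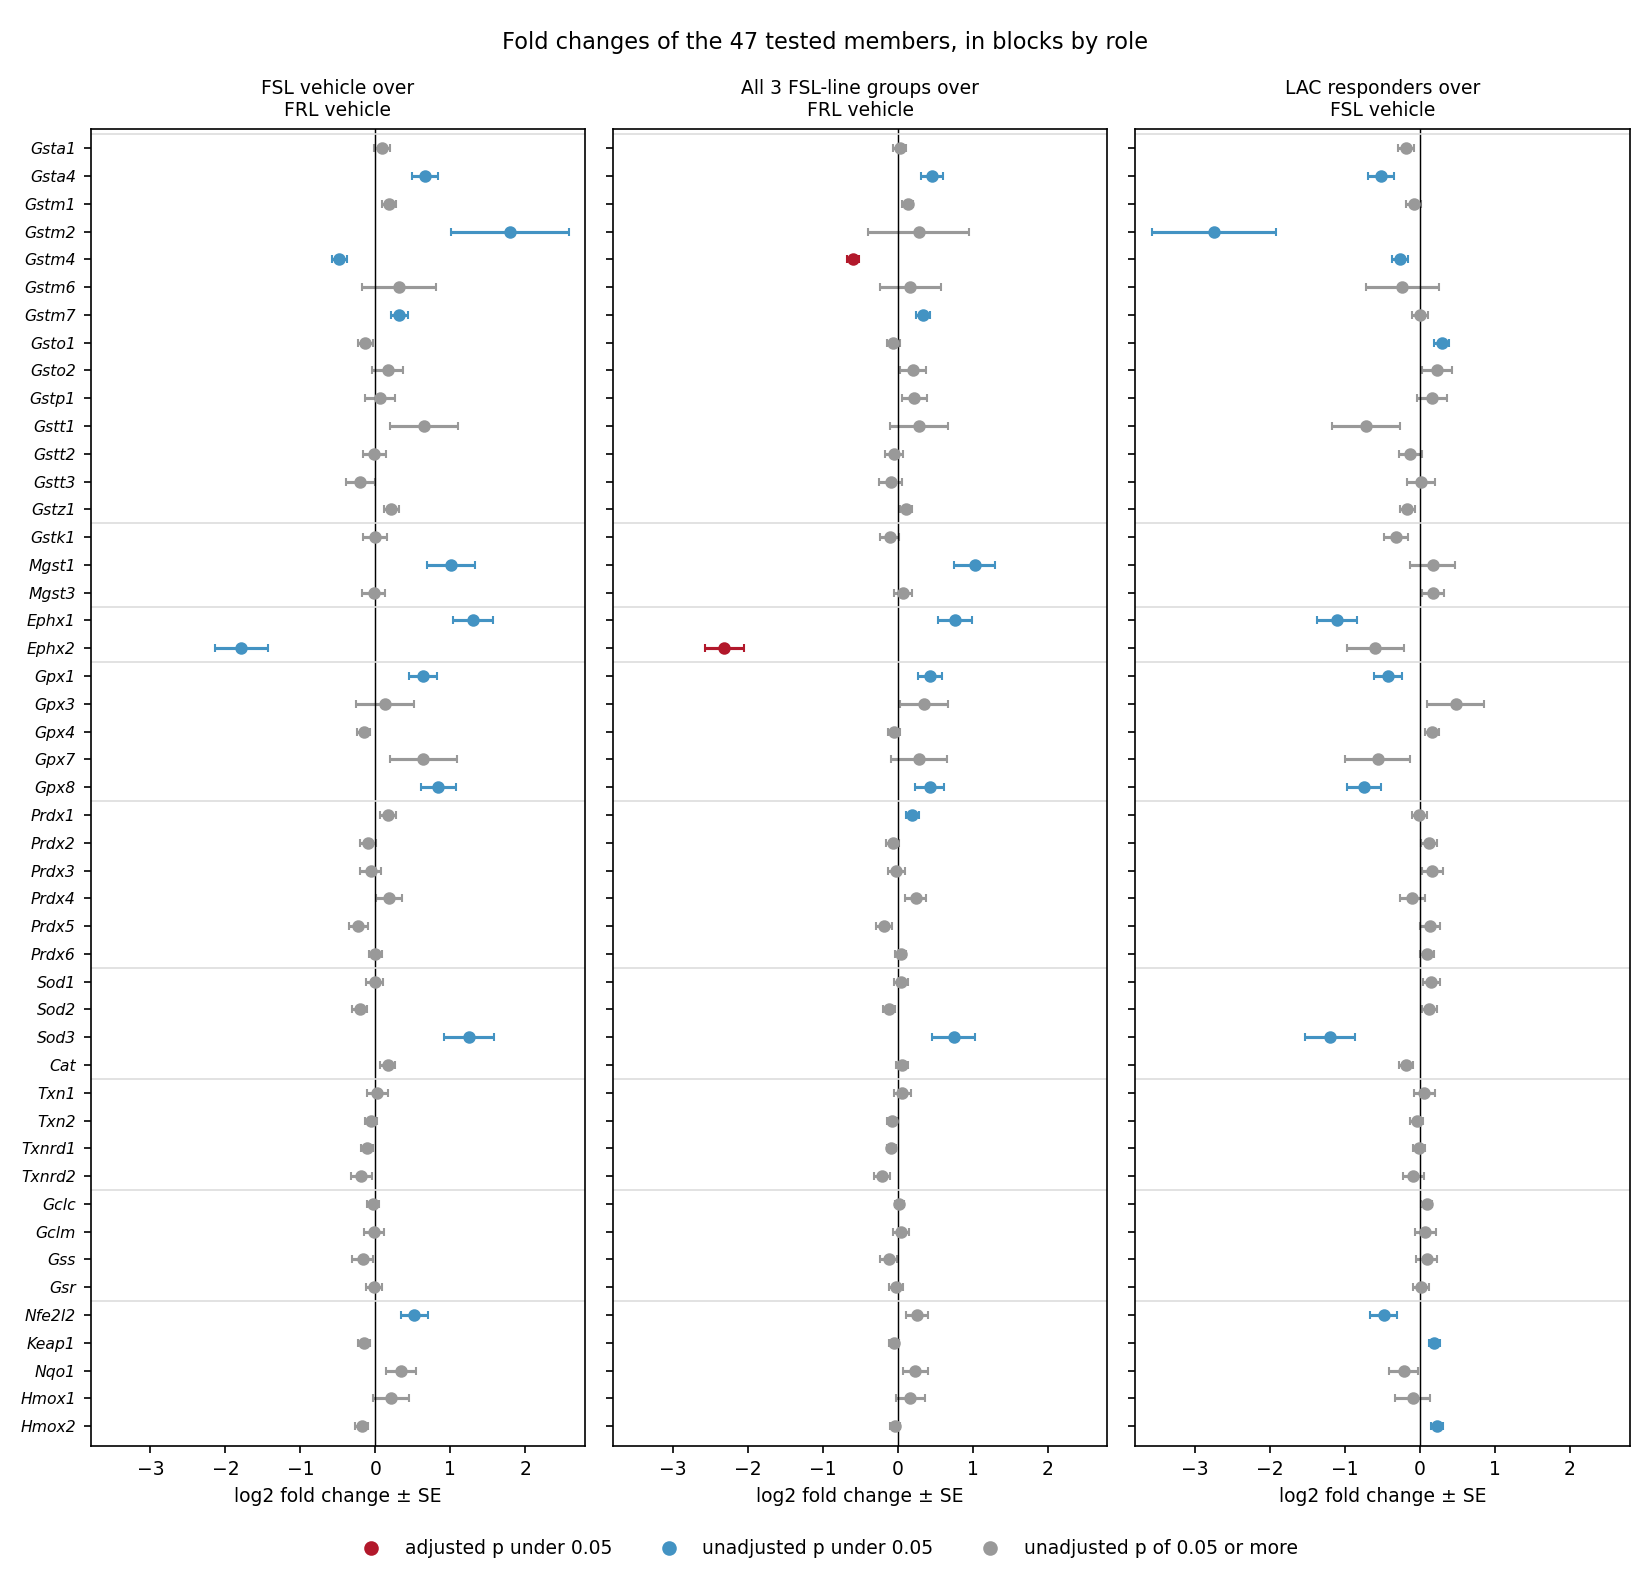
Log2 fold change with its standard error (horizontal axis) for each of the 47 tested members (rows, in blocks by role), in FSL vehicle over FRL vehicle, in all FSL-line groups over FRL vehicle and in responders over FSL vehicle. Ephx2 and Gstm4 lie left of zero in both line panels and are past the adjusted threshold in the middle one; blue points passed only an unadjusted p of 0.05.

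Cytosolic glutathione transferases conjugate glutathione to drugs, lipid peroxidation products and other electrophiles, and 14 of them were tested. Against FRL vehicle, 1 of the 14 was called in the contrast of all FSL-line groups, and at an unadjusted p under 0.05 there were 2 higher and 1 lower. Gstm4, a mu-class transferase, stood at 17.2, 15.4 and 17.5 CPM in responders, 18.6, 20 and 18.2 CPM in non-responders, 17.9, 21.5 and 20.7 CPM in FSL vehicle and 28.3, 26.9 and 28.8 CPM in FRL vehicle. Every FSL-line library lay below every FRL vehicle library. Over all FSL-line groups its log2 fold change was -0.60 ± 0.08 (SE; adjusted p = 0.0148 by edgeR). The single groups had -0.75 ± 0.10 in responders (adjusted p = 0.0279), -0.56 ± 0.10 in non-responders (adjusted p = 0.142) and -0.48 ± 0.10 in FSL vehicle (adjusted p = 0.168), each against FRL vehicle. The call in the pooled contrast ended without FRL vehicle 1 (adjusted p = 0.128), FRL vehicle 2 (0.0933), FRL vehicle 3 (0.121), non-responder 1 (0.0528) or non-responder 3 (0.0555), and that in responders without any 1 of the 6 libraries compared (0.111 to 0.169, the range over 18 settings being 0.000178 to 0.443). In all, the pooled call ended in 10 of 23 alternative settings, with adjusted p between 0.000107 and 0.247 over all of them and log2 fold changes from -0.63 to -0.55.

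Gstm7, another mu-class member, had values on the other side. It stood at 108, 132 and 135 CPM in responders, 137, 131 and 123 CPM in non-responders, 138, 113 and 123 CPM in FSL vehicle and 108, 101 and 90.5 CPM in FRL vehicle. The highest FRL library equalled the lowest responder library to 3 digits, and the log2 fold change of all FSL-line groups over FRL vehicle was 0.34 ± 0.09 (adjusted p = 0.437 by edgeR). The summed CPM of the Gstm genes was 284 to 305 in responders, 303 to 310 in non-responders, 313 to 340 in FSL vehicle and 248 to 305 in FRL vehicle. Gstm4 made up 5.35% to 6.06% of that sum in responders, 6% to 6.56% in non-responders, 5.72% to 6.78% in FSL vehicle and 9.27% to 11.6% in FRL vehicle. Since these genes are close copies of each other and reads with several alignments were left out of the counts, the split of reads among Gstm genes is uncertain.

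In the RefSeq gene order on GRCr8 the mu-class genes stand side by side, from Gstm5, Gstm6l and Gstm7 through Gstm6, Gstm3l1, Gstm3, Gstm2 and Gstm1 to Gstm4. Among the 10 nearest genes of Gstm4, 5 on each side, 7 were tested. In the contrast of all FSL-line groups with FRL vehicle, 0 of these had an unadjusted p under 0.05. Gstm7 lay outside this window, with an unadjusted p of 0.00287 by edgeR. Among the 10 nearest genes of Gstm7, 5 were tested and 1 had an unadjusted p under 0.05. That gene was Csf1 (log2 fold change 0.53 ± 0.21, adjusted p = 0.736 by edgeR). The RefSeq promoters of Gstm4 and Gstm7 are shown because these members of 1 cluster had opposite signs between the lines, and that of Nfe2l2 because its protein acts through the motif marked. Each runs from 250 bases before to 50 bases after the annotated start on GRCr8, 5′ to 3′ along the gene, at chr2:198373334-198373633 (minus strand) for Gstm4, chr2:198260270-198260569 (minus strand) for Gstm7 and chr3:81028950-81029249 (minus strand) for Nfe2l2. Capitals mark matches to the antioxidant response element core TGACNNNGC or its reverse complement GCNNNGTCA.
Gstm4: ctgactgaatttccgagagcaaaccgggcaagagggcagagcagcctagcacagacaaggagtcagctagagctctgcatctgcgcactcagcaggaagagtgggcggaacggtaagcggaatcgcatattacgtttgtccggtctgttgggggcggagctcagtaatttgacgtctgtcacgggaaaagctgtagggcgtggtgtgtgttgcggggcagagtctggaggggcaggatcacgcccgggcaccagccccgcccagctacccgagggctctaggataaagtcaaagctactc
Gstm7: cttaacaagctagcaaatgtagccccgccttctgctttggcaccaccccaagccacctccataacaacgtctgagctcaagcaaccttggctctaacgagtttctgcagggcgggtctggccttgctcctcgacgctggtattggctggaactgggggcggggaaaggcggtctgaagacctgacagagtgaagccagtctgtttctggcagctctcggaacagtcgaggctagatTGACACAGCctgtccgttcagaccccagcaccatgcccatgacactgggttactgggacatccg
Nfe2l2: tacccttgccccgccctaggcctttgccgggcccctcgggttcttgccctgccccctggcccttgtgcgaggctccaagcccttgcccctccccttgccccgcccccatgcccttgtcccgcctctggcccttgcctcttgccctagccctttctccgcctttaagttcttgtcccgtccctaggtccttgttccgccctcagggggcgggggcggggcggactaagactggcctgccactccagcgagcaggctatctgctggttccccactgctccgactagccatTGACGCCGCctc
The Gstm7 and Nfe2l2 windows each held 1 match and the Gstm4 window held 0. RefSeq promoters were found for 48 of the 57 members. Of these, 15 (31.2%) held at least 1 match, against 4038 of 33469 RefSeq promoters of the same length (12.1%). A motif this loose is common, and a match describes letters, not a site in use. Among tested members with a promoter, the 11 with a match had log2 fold changes from -0.23 to 0.52 in FSL vehicle against FRL vehicle (median 0.09) and the 28 without a match from -0.48 to 1.80 (median -0.01).

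Gsta4, an alpha-class transferase known for its activity on the lipid peroxidation product 4-hydroxynonenal, stood at 16.0, 13.3 and 13.5 CPM in responders, 20.8, 18.3 and 18.2 CPM in non-responders, 14.4, 21.8 and 25.1 CPM in FSL vehicle and 13.4, 12.8 and 12.6 CPM in FRL vehicle. All FSL vehicle and non-responder libraries lay above all FRL vehicle libraries, and responders lay among the lower values. Its log2 fold change was 0.66 ± 0.18 in FSL vehicle against FRL vehicle (adjusted p = 0.238 by edgeR). In responders it was -0.52 ± 0.18 against FSL vehicle (adjusted p = 0.275) and -0.42 ± 0.18 against non-responders (adjusted p = 0.992). Without FSL vehicle 1 the line value was 0.85 (adjusted p = 0.0203), past the threshold, within 0.0203 to 0.999 over 18 settings. With the meningeal covariate it was 0.41 ± 0.18 and with both covariates 0.21 ± 0.24, and responders against non-responders then had -0.27 ± 0.16 and -0.10 ± 0.21. FSL vehicle 3 and 2, its 2 highest libraries, were also the highest in meningeal markers. The summed ependymal markers were likewise lower in responders (12 to 17.4 CPM) than in non-responders (20.2 to 25.6 CPM) and FSL vehicle (18.5 to 58.8 CPM), with 12.4 to 15.8 CPM in FRL vehicle. However, 1 of the 3 tested was higher in responders in each comparison. Their mean log2 CPM overlapped, at 1.75 to 2.25 in responders, 2.16 to 2.5 in non-responders and 2.13 to 2.75 in FSL vehicle. The part of ependymal cells was not tested.

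Gsto1, an omega-class transferase with thiol transferase activity, differed between the LAC groups at an unadjusted level. It stood at 84.2, 73.1 and 87.7 CPM in responders, 65.5, 62.5 and 63.6 CPM in non-responders, 66.2, 74.7 and 59.4 CPM in FSL vehicle and 79.6, 73.2 and 66.4 CPM in FRL vehicle. Responders and non-responders did not overlap, as held for 8 of the 47 members and 11.3% of all genes. The log2 fold change of responders over non-responders was 0.36 ± 0.10 (adjusted p = 0.992 by edgeR), the smallest p of any member there. All 18 alternative settings kept its sign, with log2 fold changes from 0.29 to 0.42 and adjusted p from 0.347 to 1.

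Gstm2 had the widest spread of any tested member, with its highest library 36.7 times its lowest. It stood at 6.86, 1.73 and 1.08 CPM in responders, 3.56, 9.76 and 5.37 CPM in non-responders, 3.08, 23.1 and 39.6 CPM in FSL vehicle and 5.53, 7.87 and 5.45 CPM in FRL vehicle. FSL vehicle 3 and 2 and non-responder 2, its 3 highest libraries, were also the 3 highest in the meningeal and fibroblast markers. Its log2 fold change was 1.80 ± 0.79 in FSL vehicle against FRL vehicle (adjusted p = 0.342 by edgeR), and -0.31 ± 0.47 with the meningeal marker mean as a covariate. In responders against FSL vehicle it was -2.75 ± 0.83 (adjusted p = 0.266) and -0.38 ± 0.52 with the covariate. DESeq2 called this second difference (adjusted p = 0.0317), and edgeR did without FSL vehicle 1 (-3.26, adjusted p = 0.0302), the adjusted p over its alternatives running from 0.0302 to 1. The part of meningeal tissue in the difference was not tested beyond this covariate.

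The other 9 cytosolic transferases had smaller or less even differences. Gstm1 ranged from 119 to 156 CPM over the 12 libraries and Gsta1 from 104 to 143 CPM. Gstp1, the pi-class transferase, ranged from 62.9 CPM in responder 3 to 115 CPM in non-responder 2. Gstt1 had 1.79 to 7.98 CPM and Gstm6 1.33 to 7.70 CPM, so both rest on few counts. None of these 9, which also include Gsto2, Gstt2, Gstt3 and Gstz1, had an unadjusted p under 0.05 in FSL vehicle against FRL vehicle.

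Of the 3 transferases in membranes and mitochondria, Mgst1 had the largest line difference. Mgst1, a microsomal transferase that also reduces lipid peroxides, stood at 17.5, 11.9 and 7.29 CPM in responders, 9.37, 11.2 and 9.47 CPM in non-responders, 7.30, 11.7 and 13.4 CPM in FSL vehicle and 6.56, 4.93 and 4.60 CPM in FRL vehicle. All 9 FSL-line libraries lay above all 3 FRL vehicle libraries. The same separation, in either direction, held for 3 members (Ephx2, Gstm4 and Mgst1) and for 1.94% of all genes. The log2 fold change over all FSL-line groups was 1.03 ± 0.27 (adjusted p = 0.439 by edgeR), with 0.72 to 1.21 over 23 alternative settings and adjusted p from 0.099 to 1. Mgst1 was highest in responder 1, one of the libraries low in Prox1. The 7 microglia and macrophage markers were all higher in this contrast, 3 of them at an unadjusted p under 0.05, and summed to 226 to 282 CPM in responders, 223 to 287 CPM in non-responders, 257 to 322 CPM in FSL vehicle and 203 to 224 CPM in FRL vehicle. Their part in the Mgst1 difference was not tested. Mgst3 ranged from 70.8 to 115 CPM and the mitochondrial Gstk1 from 11.4 to 19.1 CPM, with no unadjusted p under 0.05 in the line comparisons.

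**Figure D2:**
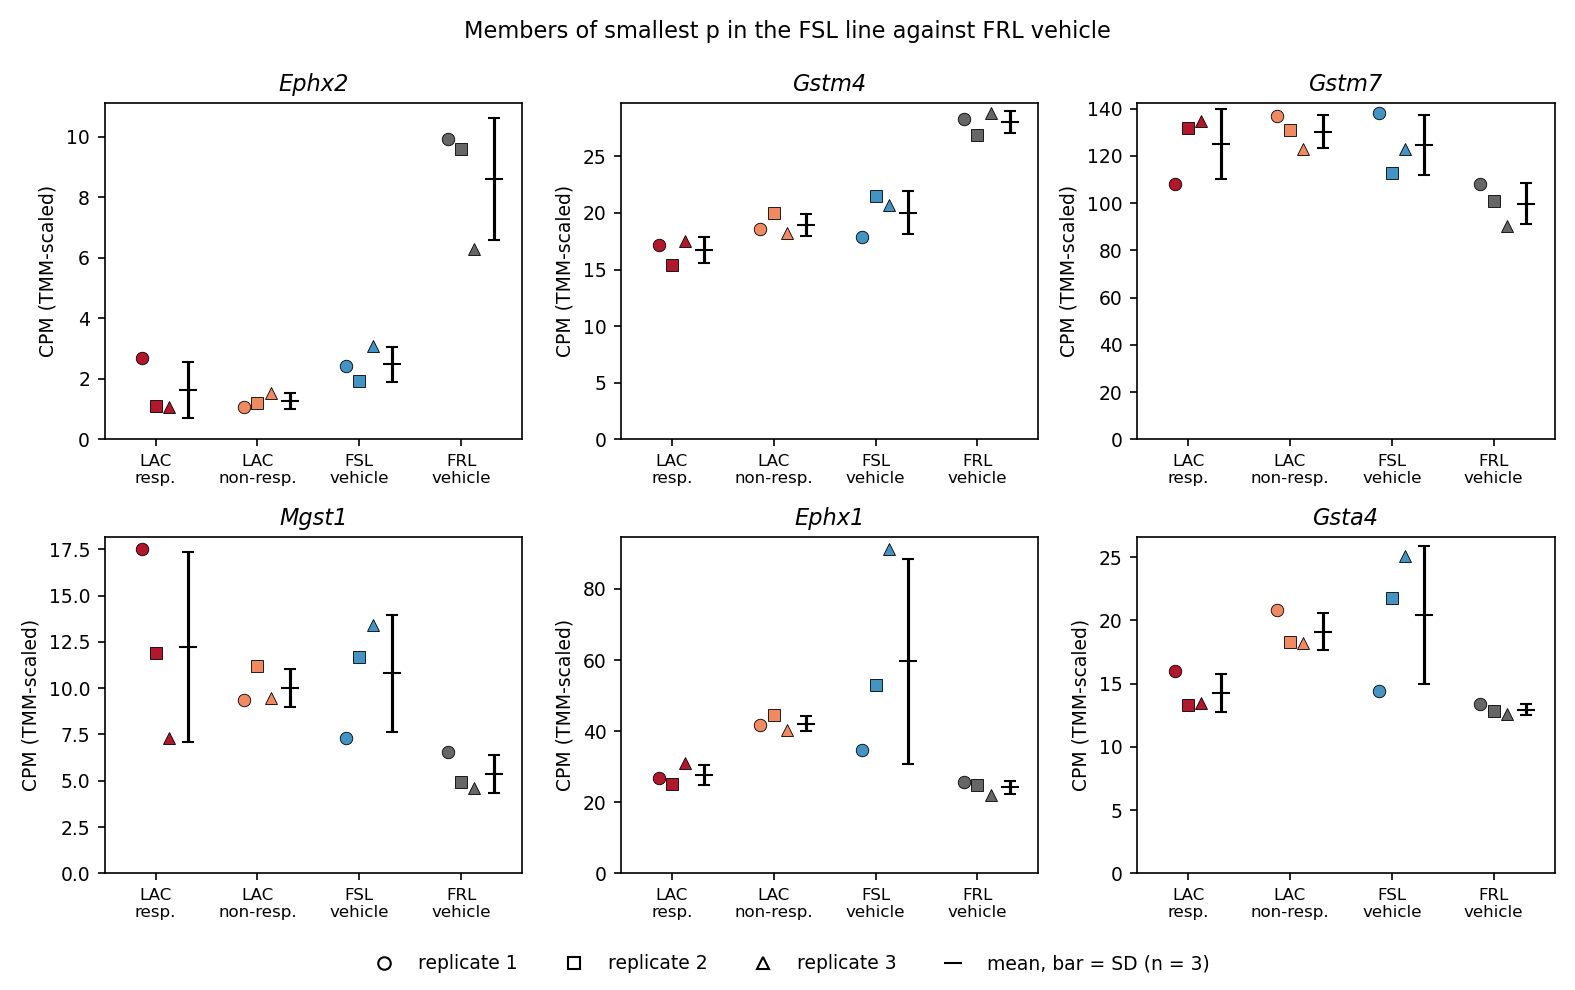
CPM (vertical axis, from zero) of 6 members in each library, by group, with the replicate number as the symbol and the mean and SD of each group (n = 3). Ephx2 and Gstm4 are lower in all 9 FSL-line libraries than in any FRL vehicle library, and Mgst1 is higher in all 9; Ephx1 reaches 91.1 CPM in FSL vehicle 3.

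The epoxide hydrolases had values on opposite sides of FRL vehicle. Ephx2 encodes soluble epoxide hydrolase, which turns fatty acid epoxides such as epoxyeicosatrienoic acids into diols. It stood at 2.70, 1.12 and 1.08 CPM in responders, 1.06, 1.19 and 1.55 CPM in non-responders, 2.43, 1.93 and 3.08 CPM in FSL vehicle and 9.91, 9.60 and 6.30 CPM in FRL vehicle. Means were 1.63 ± 0.92 CPM in responders, 1.27 ± 0.26 in non-responders, 2.48 ± 0.57 in FSL vehicle and 8.60 ± 2.0 in FRL vehicle (SD, n = 3 each). All 9 FSL-line libraries lay below all 3 FRL vehicle libraries, and the values rest on 8 to 22 reads per FSL-line library and 37 to 77 reads per FRL library.

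Ephx2 fell in responders, 5.22-fold lower than in FRL vehicle (log2 fold change -2.39 ± 0.37, adjusted p = 0.0453 by edgeR; 0.0851% of all genes were called and 2 members, with Gstm4). In non-responders Ephx2 fell to 6.76-fold lower levels than FRL vehicle (-2.76 ± 0.38, adjusted p = 0.0333 by edgeR; 0.0426% of all genes and 1 member). In FSL vehicle the log2 fold change was -1.79 ± 0.36 (adjusted p = 0.127). Pooled over the FSL-line groups it was -2.31 ± 0.27 (adjusted p = 0.00573), and it was -2.49 with the meningeal covariate (adjusted p = 0.00251) and -2.41 with the choroid plexus covariate (adjusted p = 0.0474). The call in responders ended in 10 of 18 settings: in the compared groups only (adjusted p = 0.249), with the replicate block (0.109) or the choroid plexus covariate (0.0779), without the libraries highest in choroid plexus markers, FSL vehicle 1 and 3 and non-responder 1 (0.107) or without FRL vehicle 2 and responder 1 together (0.139), and without FRL vehicle 1 (0.195), 2 (0.249) or 3 (0.0817) or responder 2 (0.267) or 3 (0.217), within 4.31e-05 to 0.267 over 18 settings. The call in non-responders also ended in 10 of 18: with the replicate block (adjusted p = 0.115), the choroid plexus covariate (0.172) or both covariates (0.0608), without the same 3 libraries (0.0697) or without FRL vehicle 2 and responder 1 together (0.053), and without FRL vehicle 1 (0.224) or 2 (0.19) or non-responder 1 (0.334), 2 (0.312) or 3 (0.193), within 3.39e-06 to 0.334 over 18 settings. The pooled call ended without FRL vehicle 1 (adjusted p = 0.0652) or FRL vehicle 2 (adjusted p = 0.0686), the range over 23 settings being 6.63e-09 to 0.0686. All 3 non-responder libraries lay below all 3 FSL vehicle libraries (-0.96 ± 0.40, adjusted p = 0.976), the one member without overlap in that comparison, where 7.80% of all genes had none. Responder 1 overlapped FSL vehicle, and responders had -0.59 ± 0.39 against it (adjusted p = 0.518).

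Of the 10 nearest genes to Ephx2 in the RefSeq order on GRCr8, 8 were tested, with log2 fold changes of all FSL-line groups over FRL vehicle from -0.14 to 0.30. The one with an unadjusted p under 0.05 was Clu, which encodes the secreted chaperone clusterin (0.30 ± 0.09, adjusted p = 0.491 by edgeR).

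Ephx1 encodes microsomal epoxide hydrolase, which detoxifies epoxides of drugs and pollutants. It stood at 26.8, 25.2 and 30.9 CPM in responders, 41.6, 44.4 and 40.4 CPM in non-responders, 34.7, 53.1 and 91.1 CPM in FSL vehicle and 25.6, 24.8 and 22.1 CPM in FRL vehicle. Responders overlapped FRL vehicle, and both other FSL-line groups lay above these 2 groups. Its log2 fold change was 1.30 ± 0.27 in FSL vehicle against FRL vehicle (adjusted p = 0.164 by edgeR) and 0.80 ± 0.27 in non-responders against FRL vehicle (adjusted p = 0.925). In responders it was -1.11 ± 0.27 against FSL vehicle (adjusted p = 0.266) and -0.61 ± 0.27 against non-responders (adjusted p = 0.992).

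The 3 highest libraries for Ephx1 were also the 3 highest in meningeal and fibroblast markers (FSL vehicle 3 and 2 and non-responder 2). With the meningeal mean as a covariate the log2 fold change was 0.78 ± 0.22 in FSL vehicle against FRL vehicle and -0.47 ± 0.24 in responders against FSL vehicle. Without FSL vehicle 1, the lowest Ephx1 library of its group, the values were 1.57 (adjusted p = 0.0132) and -1.38 (adjusted p = 0.0164), past the threshold. With FSL vehicle 1 and 3 and non-responder 1 left out, FSL vehicle was 1 library, and the values were 1.14 and -0.95. Over all alternatives the first value ran from 0.53 to 1.57 and the second from -1.38 to -0.20. The value of responders against non-responders ran from -0.71 to -0.09. On all libraries DESeq2 gave adjusted p = 0.00169 and 0.0142. Over all alternatives the adjusted p ran from 0.00169 to 0.999 in the first comparison and from 0.0142 to 1 in the second.

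Of the 5 glutathione peroxidases tested, 0 were called in any comparison. Gpx1, the abundant cytosolic peroxidase, stood at 45.2, 33.8 and 32.1 CPM in responders, 50.8, 39.6 and 39.7 CPM in non-responders, 36.5, 55.9 and 56.7 CPM in FSL vehicle and 33.5, 33.3 and 29.0 CPM in FRL vehicle. FSL vehicle and non-responders lay above all FRL vehicle libraries. The log2 fold changes were 0.64 ± 0.19 in FSL vehicle against FRL vehicle (adjusted p = 0.251 by edgeR), 0.44 ± 0.19 in non-responders against FRL vehicle (adjusted p = 0.93) and -0.43 ± 0.18 in responders against FSL vehicle (adjusted p = 0.347). With the meningeal covariate the first was 0.43 ± 0.20 and the last -0.18 ± 0.22, and with both covariates they were 0.16 ± 0.26 and 0.11 ± 0.28, so the last turned sign. Gpx1 was highest in FSL vehicle 3 and 2, the 2 libraries highest in meningeal markers.

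Gpx8, a peroxidase of the endoplasmic reticulum, stood at 16.4, 12 and 13.4 CPM in responders, 16.5, 17.7 and 15.3 CPM in non-responders, 14.4, 24.4 and 30.9 CPM in FSL vehicle and 13, 12.4 and 13.6 CPM in FRL vehicle. FSL vehicle 2 and 3 stood apart from the other 10 libraries. Its log2 fold change was 0.84 ± 0.23 in FSL vehicle against FRL vehicle (adjusted p = 0.238 by edgeR), -0.50 ± 0.22 in non-responders against FSL vehicle (adjusted p = 0.976) and -0.74 ± 0.23 in responders against FSL vehicle (adjusted p = 0.266). With the meningeal covariate these were 0.42, -0.24 and -0.23. Over all alternatives they ran from 0.254 to 1.09, -0.744 to -0.203 and -0.985 to -0.0581. The 3 highest libraries for Gpx8 were the 3 highest in meningeal markers. Without FSL vehicle 1 it was past the threshold at 1.09 in the line comparison (adjusted p = 0.019) and -0.99 in responders against FSL vehicle (adjusted p = 0.0191), within ranges of 0.019 to 0.999 and 0.0191 to 1 over the alternatives.

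Gpx4, which reduces lipid hydroperoxides in membranes and restrains ferroptosis, stood at 224, 222 and 214 CPM in responders, 238, 217 and 204 CPM in non-responders, 191, 219 and 178 CPM in FSL vehicle and 224, 231 and 201 CPM in FRL vehicle. All groups overlapped, and its log2 fold change was -0.16 ± 0.09 in FSL vehicle against FRL vehicle (adjusted p = 0.477 by edgeR) and 0.00 ± 0.09 in responders against non-responders. Gpx3, the secreted peroxidase, ranged from 4.94 to 8.62 CPM in 11 libraries and stood at 14.6 CPM in responder 1, a library low in Prox1 and highest in Slc17a6 (274 CPM) and Tcf7l2 (156 CPM), although the other 2 thalamus markers, Prkcd (18 CPM) and Zic1 (6.62 CPM), were not high there. Gpx7 ranged from 1.95 to 6.71 CPM.

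Among superoxide dismutases and catalase, the spread between libraries was widest for Sod3. Sod3, the extracellular dismutase, stood at 10.2, 12.6 and 14.2 CPM in responders, 32.3, 16.5 and 19.4 CPM in non-responders, 41.1, 16.5 and 27.9 CPM in FSL vehicle and 13, 9.47 and 13.3 CPM in FRL vehicle. The 3 highest libraries, FSL vehicle 1, non-responder 1 and FSL vehicle 3, were the 3 highest in choroid plexus markers, which held for Sod3 alone among the 47 members. All responder libraries lay below all FSL vehicle and non-responder libraries. The log2 fold changes were 1.25 ± 0.34 in FSL vehicle against FRL vehicle (adjusted p = 0.238 by edgeR), -1.20 ± 0.33 in responders against FSL vehicle (adjusted p = 0.266) and -0.88 ± 0.33 in responders against non-responders (adjusted p = 0.992).

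With the choroid plexus marker mean as a covariate the same Sod3 values were 0.61 ± 0.23, -0.58 ± 0.23 and -0.35 ± 0.22. With the meningeal covariate they were instead 1.68, -1.75 and -1.18. DESeq2 called the first comparison (adjusted p = 0.0349) and the second (adjusted p = 0.0427), within ranges of 0.0349 to 0.999 and 0.0427 to 1 over the alternatives.

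**Figure D3:**
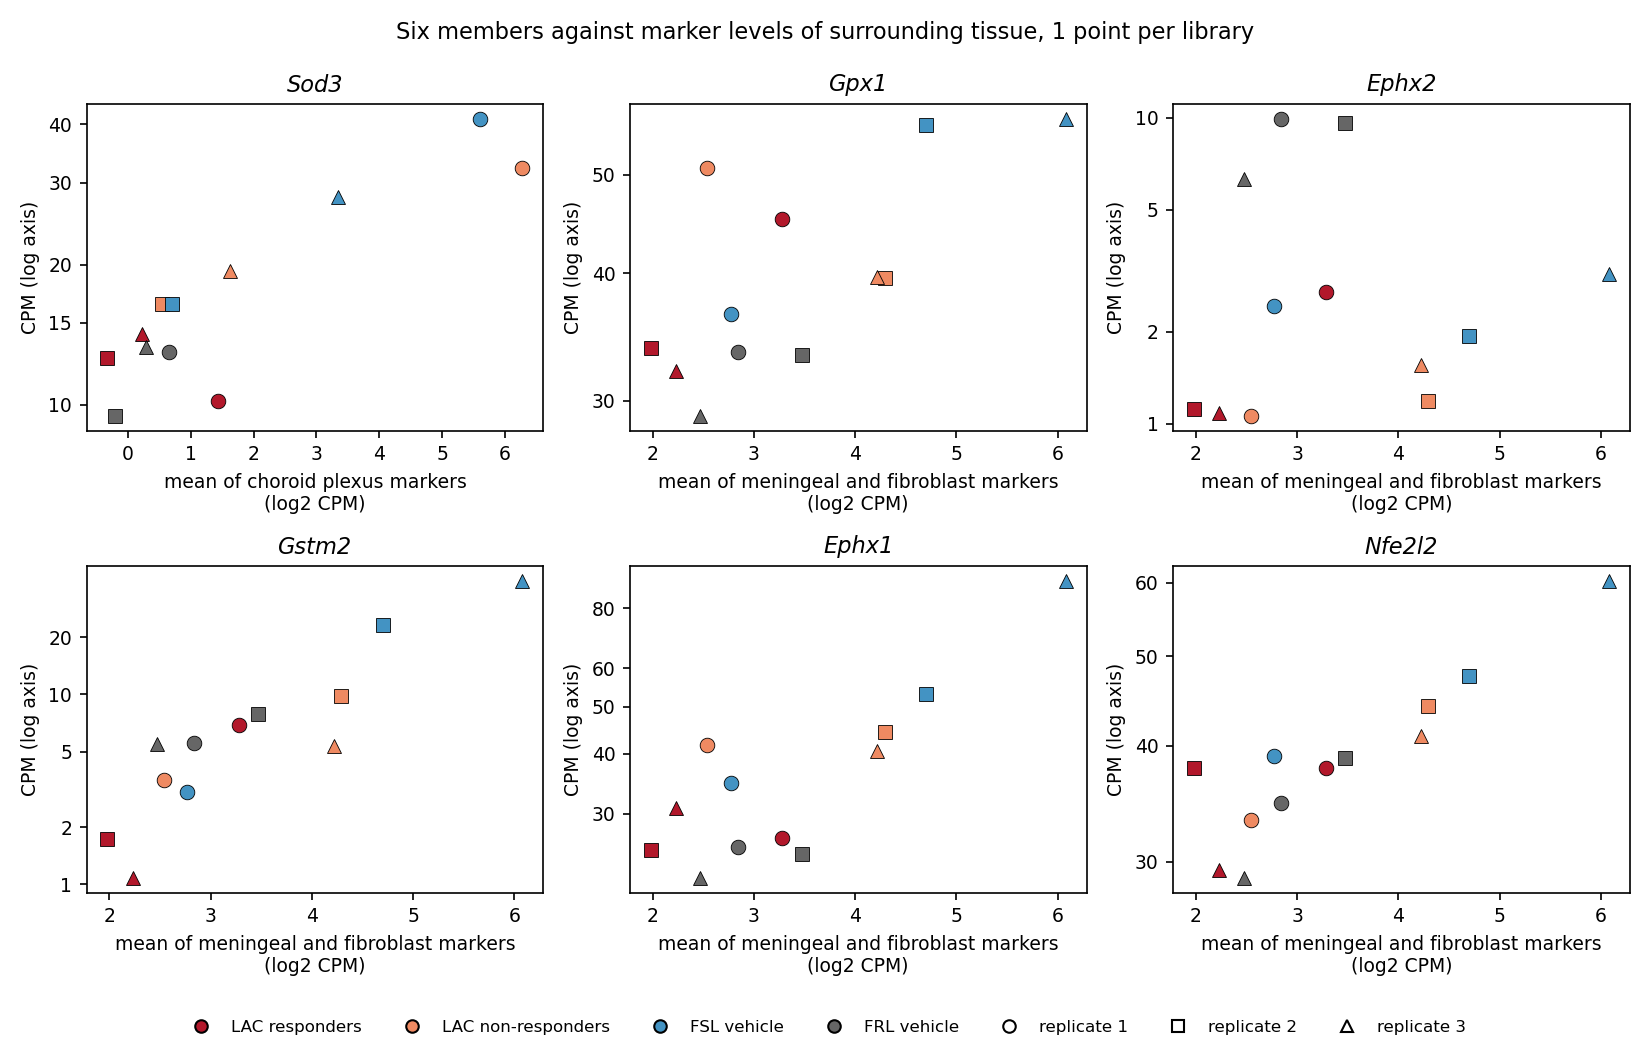
CPM of 6 members (vertical log axes) against the mean log2 CPM of choroid plexus markers (Sod3) or of meningeal and fibroblast markers (Gpx1, Ephx2, Gstm2, Ephx1, Nfe2l2), 1 point per library, colour for group and symbol for replicate. Sod3 is highest in the 3 libraries at the right of its panel, and Gstm2, Ephx1 and Nfe2l2 are highest in FSL vehicle 3, 2 and non-responder 2, while Ephx2 separates FRL vehicle from all other libraries across the marker range.

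The intracellular enzymes varied little. Sod1, the cytosolic copper-zinc dismutase, stood at 215, 171 and 170 CPM in responders, 180, 174 and 152 CPM in non-responders, 155, 186 and 160 CPM in FSL vehicle and 163, 181 and 161 CPM in FRL vehicle. Sod2, the mitochondrial manganese dismutase, stood at 193, 217 and 195 CPM in responders, 195, 201 and 217 CPM in non-responders, 211, 168 and 175 CPM in FSL vehicle and 194, 222 and 223 CPM in FRL vehicle. Catalase (Cat) stood at 64.4, 56.8 and 61.8 CPM in responders, 66.4, 58.5 and 65.0 CPM in non-responders, 68.7, 64.9 and 75.0 CPM in FSL vehicle and 64.0, 55.1 and 67.1 CPM in FRL vehicle. Their groups overlapped in the line comparison, where the log2 fold changes were -0.01 ± 0.11 for Sod1, -0.21 ± 0.10 for Sod2 and 0.17 ± 0.10 for Cat. The SE of these values leaves room for differences of that size, so equality was not shown.

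Peroxiredoxins, thioredoxins and the enzymes of glutathione synthesis had small differences between FSL vehicle and the other groups. Of the 6 peroxiredoxins, 4 thioredoxin genes (Txn1, Txn2, Txnrd1 and Txnrd2) and 4 glutathione genes (Gclc, Gclm, Gss and Gsr), 0 had an unadjusted p under 0.05 in FSL vehicle against FRL vehicle (13.9% of all genes). The same held against FSL vehicle in non-responders (4.21% of all genes) and in responders (13.8%). The log2 fold changes in FSL vehicle against FRL vehicle lay between -0.23 and 0.18 for peroxiredoxins, -0.19 and 0.03 for thioredoxin genes and -0.17 and -0.02 for glutathione genes. Gclc, the catalytic subunit of glutamate-cysteine ligase, ranged from 76.0 to 90.7 CPM, a ratio of 1.19 that was the lowest of the tested members. The highest library was under 1.5 times the lowest for 23 of the 47 members, and at least 2 times for 12, Prdx4 among them.

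Single peroxiredoxins passed an unadjusted p elsewhere. Prdx1, a cytosolic peroxiredoxin, had 0.19 ± 0.09 in all FSL-line groups against FRL vehicle (adjusted p = 0.742 by edgeR). Prdx4, which acts in the endoplasmic reticulum, was highest in non-responder 1 at 22.4 CPM and lowest in FRL vehicle 3 at 11.2 CPM. Its log2 fold change was -0.37 ± 0.17 in responders against non-responders (adjusted p = 0.992) and 0.45 ± 0.17 in non-responders against FRL vehicle (adjusted p = 0.925).

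Nrf2 and its repressor gave 0 calls. Nfe2l2 stood at 37.9, 37.9 and 29.4 CPM in responders, 33.3, 44.2 and 41.0 CPM in non-responders, 39.0, 47.6 and 60.3 CPM in FSL vehicle and 34.7, 38.8 and 28.8 CPM in FRL vehicle. All FSL vehicle libraries lay above all FRL vehicle and responder libraries. The log2 fold change was 0.52 ± 0.18 in FSL vehicle against FRL vehicle (adjusted p = 0.268 by edgeR) and 0.19 ± 0.13 with the meningeal covariate. In responders against FSL vehicle it was -0.48 ± 0.18 (adjusted p = 0.29) and -0.07 ± 0.15 with the covariate.

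Keap1, the adaptor that marks Nrf2 for degradation, stood at 73.0, 71.6 and 68.3 CPM in responders, 67.7, 63.6 and 68.8 CPM in non-responders, 57.9, 66.7 and 61.3 CPM in FSL vehicle and 70.9, 71.1 and 63.9 CPM in FRL vehicle. Responders lay above FSL vehicle, with a log2 fold change of 0.20 ± 0.08 (adjusted p = 0.32 by edgeR). Nqo1, a quinone reductase widely used as a readout of Nrf2 activity, stood at 19.6, 13.5 and 12.4 CPM in responders, 15, 18.9 and 15.7 CPM in non-responders, 14.6, 18.3 and 20 CPM in FSL vehicle and 16.2, 12.3 and 13.3 CPM in FRL vehicle. Its groups overlapped in the line comparison (0.34 ± 0.20, adjusted p = 0.468).

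The heme oxygenases split heme into biliverdin, carbon monoxide and iron. Hmox1, the inducible form, stood at 4.04, 3.47 and 4.05 CPM in responders, 4.35, 3.56 and 4.24 CPM in non-responders, 2.92, 4.77 and 4.62 CPM in FSL vehicle and 3.35, 3.47 and 3.92 CPM in FRL vehicle, overlapping in all groups. Hmox2, the constitutive form, stood at 88.3, 88.1 and 91.4 CPM in responders, 86.4, 91.4 and 90.2 CPM in non-responders, 72.1, 87.1 and 69.4 CPM in FSL vehicle and 87.1, 84.5 and 88.2 CPM in FRL vehicle. FSL vehicle 1 and 3 stood below the other 10 libraries. Both were high in choroid plexus markers, but non-responder 1, the highest in these markers, stood at 86.4 CPM. The log2 fold change of Hmox2 was 0.23 ± 0.08 in responders (adjusted p = 0.298 by edgeR) and in non-responders (adjusted p = 0.976), each against FSL vehicle. A fit without these 2 libraries leaves FSL vehicle with 1 library, so their part in the difference could not be tested. In non-responders the value ran from 0.06 to 0.34 over 19 alternative settings.

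**Figure D4:**
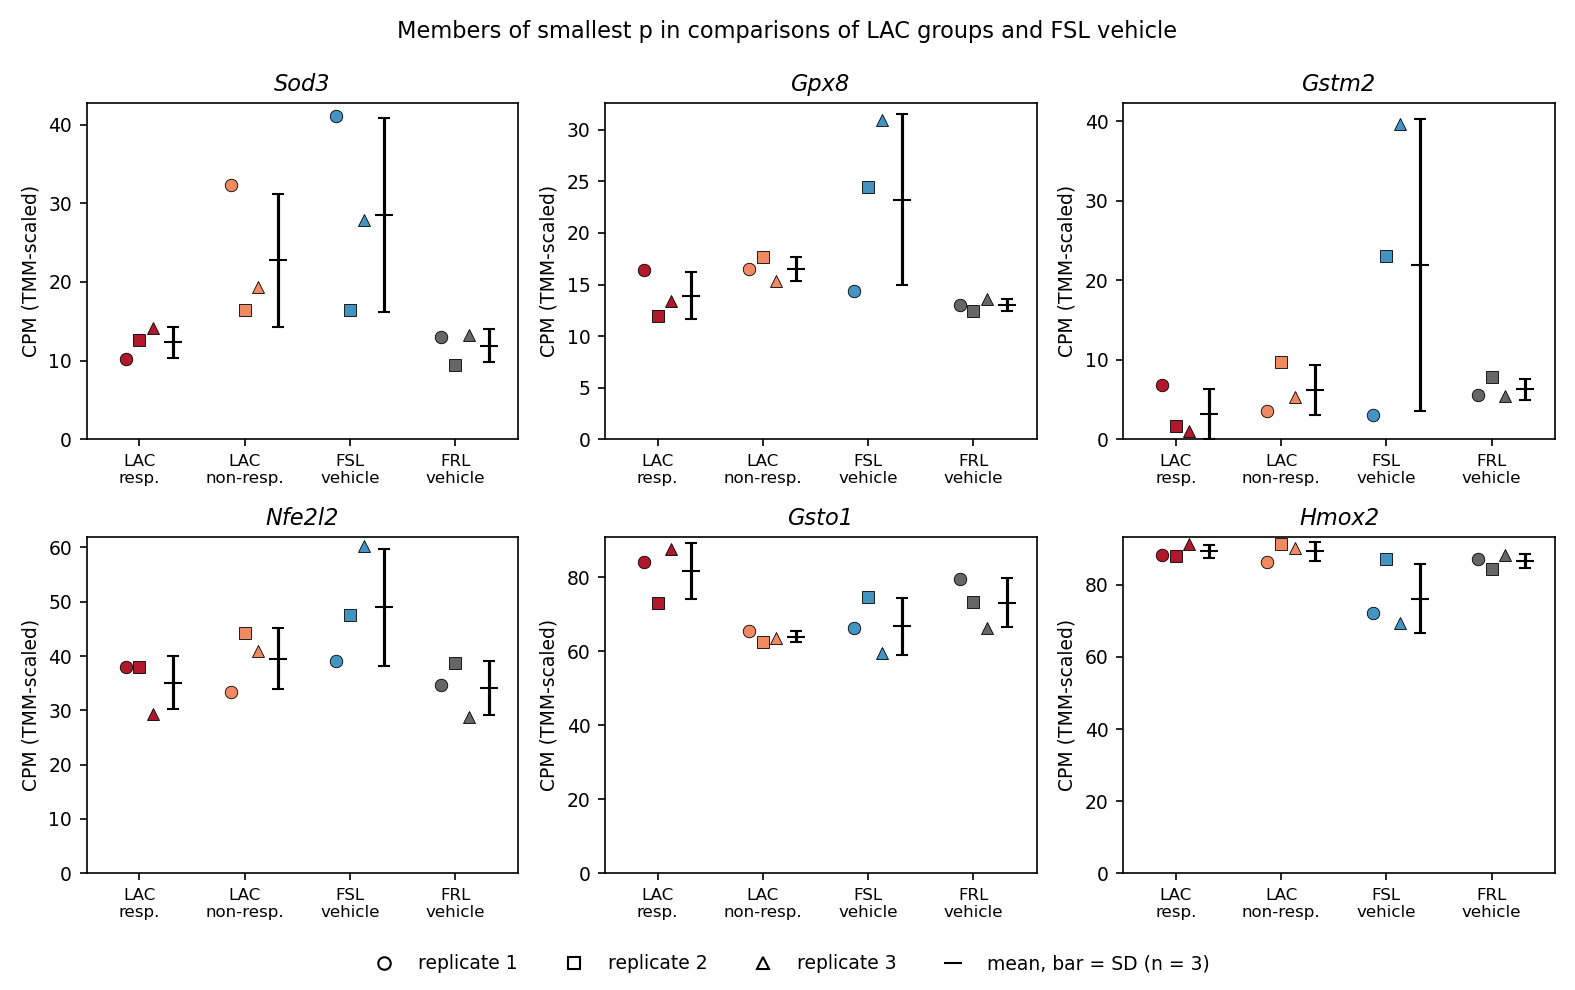
CPM (vertical axis, from zero) of 6 members in each library, by group, with the replicate number as the symbol and the mean and SD of each group (n = 3). Responders lie below all FSL vehicle libraries in Sod3 and Nfe2l2 and above all non-responders in Gsto1, while Hmox2 is lowest in FSL vehicle 1 and 3.

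The highest value of a member often lay in the same libraries. FSL vehicle 3 was the highest library for 11 of the 47 members and FSL vehicle 2 for 10, while responder 2 and non-responder 3 were the highest for none. The 3 libraries highest in meningeal markers were the 3 highest for Ephx1, Gpx8, Gstm2, Gstz1 and Nfe2l2. How often the same held over all genes was not counted, so these counts are not particular to the members. Over all genes tested, the main axis of variation between libraries (first principal component) held 36.4% of the variance. Its absolute correlation with the meningeal marker mean was 0.979. The 2 called members, Ephx2 and Gstm4, shared 0 of their 3 highest libraries with either marker list. This follows from their order, since all 3 were FRL vehicle, and cannot show whether tissue makeup had a part. In all, 19 members shared 0 with the choroid plexus list and 9 with the meningeal list.

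**Figure D5:**
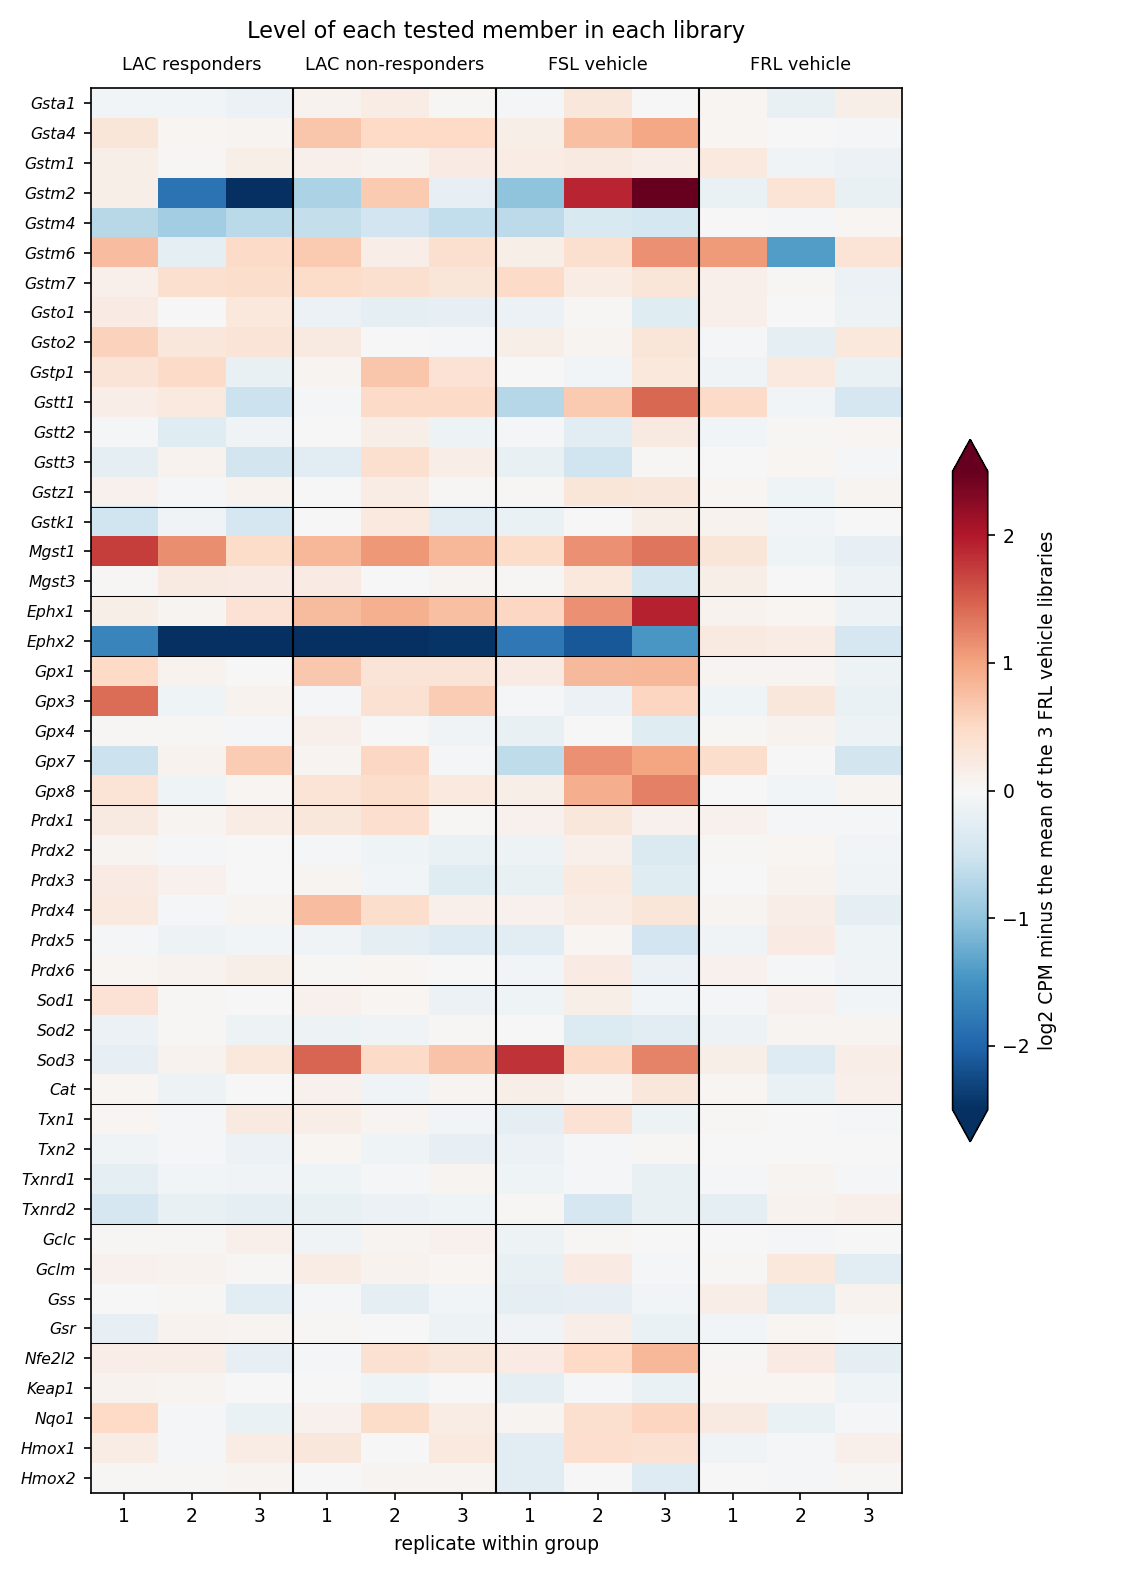
Log2 CPM of each tested member (rows, in blocks by role) in each of the 12 libraries (columns, by group), minus the mean of the 3 FRL vehicle libraries, with colours capped at 2.5 on either side. Ephx2 and Gstm4 are blue in all 9 FSL-line libraries, Mgst1 is red in all 9, and Gstm2, Ephx1 and Gpx8 are reddest in FSL vehicle 2 and 3.

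Of the 57 members, 10 were too low to test. Gpx6, Gsta2, Gsta5 and Gstm5 had 0 counts in all 12 libraries, so their levels lay below the floor of 3 counts. Gpx5, Gstm3, Gstm6l and Gstt4 had 1 count in all. Gpx2 had 48 counts and at most 1.32 CPM, and Gsta3 had 25 counts and at most 0.424 CPM. Close copies among the Gsta and Gstm genes make these low counts uncertain.

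Genes that work beside the members were read from 7 lists of 145 genes: glutathione turnover and transport, thioredoxin partners, NADPH supply, Nrf2 partners and targets, cytochrome P450 and carbonyl enzymes, NADPH oxidases and other oxidant sources, and metallothioneins with iron storage. Of these, 123 were tested and 0 were called in any of the 7 comparisons. At an unadjusted p under 0.05, FSL vehicle against FRL vehicle had 26 higher and 5 lower (all genes, 9.35% higher and 4.53% lower), and their median log2 fold change was 0.08 beside -0.01 for all genes. Responders against FSL vehicle had 5 higher and 20 lower (all genes, 4.61% higher and 9.17% lower). Responders against non-responders had 0 higher and 3 lower (all genes, 1.18% higher and 1.96% lower).

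The 2 genes of smallest p from each list are given here for the untreated lines. Aox1 (aldehyde oxidase, from the list of Nrf2 targets) had a log2 fold change of 1.43 ± 0.29 in FSL vehicle against FRL vehicle (adjusted p = 0.158 by edgeR), Akr7a2 (an aldehyde reductase) 0.50 ± 0.12 (adjusted p = 0.195) and Pon3 (a paraoxonase) 2.77 ± 0.73 (adjusted p = 0.238). In responders against FSL vehicle the same 3 had -0.85 ± 0.28, -0.36 ± 0.11 and -1.77 ± 0.64. The cystine importer Slc7a11, which supplies glutathione synthesis, had 0.86 ± 0.27 in the line comparison and -0.90 ± 0.27 in responders against FSL vehicle.

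NADPH suppliers Idh2 and Me1 had 0.39 ± 0.10 and 0.41 ± 0.15 in FSL vehicle against FRL vehicle. Gdap1, a mitochondrial transferase relative, had -0.49 ± 0.13. Txnip, the thioredoxin-binding protein, had 1.26 ± 0.52, nucleoredoxin (Nxn) 0.34 ± 0.15, the small Maf partner Mafg 0.21 ± 0.10, Nos3 (nitric oxide synthase of endothelium) 1.12 ± 0.44, Cybb (the catalytic subunit of the phagocyte NADPH oxidase) 1.84 ± 0.73, ceruloplasmin (Cp) 2.41 ± 0.82 and Mt1a 0.36 ± 0.21. Each adjusted p among these was 0.238 or more. The part of tissue makeup in the values of these genes, and of Aox1, Akr7a2, Pon3 and Slc7a11, was not tested.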

How the data were processed

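RNA from about 130 mg of ventral dentate gyrus tissue was made into stranded, ribosomal-RNA-depleted libraries and sequenced as 100 bp single reads in 1 pool over several lanes, per the labels' protocols. The deposited files hold raw read counts per gene symbol, with 5 summary lines that were left out. The build is rn5, and the submitters' processing notes list HTSeq 0.6.1, TopHat2 2.0.9, edgeR 3.12.0, FastQC 0.11.3 and Trimmomatic 0.33. No source used here gives the annotation or strand setting, so reads of a gene and of one that overlaps it or lies antisense cannot be told apart. Lines for reads in no gene, ambiguous reads and reads with several alignments held 47.7% to 52.7%, 0.0756% to 0.106% and 24.3% to 28.4% of reads.

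Tests used the quasi-likelihood model of edgeR 4.0.16 under R 4.3.3, robust and two-sided, with the 4 group means fitted over the 12 libraries after TMM scaling (0.975 to 1.04) and filterByExpr, which kept 11750 genes. P-values were adjusted over these genes (Benjamini-Hochberg, 0.05), and the code was tested on simulated data. Common biological variation was 0.178 (coefficient). Fold changes are log2 with SE. P-values measure the spread between libraries, and the floor of 3 counts covers counting error only. No replicate pair of a group agreed within sampling noise (chi-square per gene 5.54 to 28.3).

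The members, lists and alternatives were chosen with earlier results of these data known. Values in every library are given for members of smallest p (6 in each line contrast, 4 in each LAC contrast), members past the threshold and 12 members fixed by name. Others are given by range, and 2 genes of smallest p per pathway list. Marker values are means of log2 CPM with a prior count of 2. Alternatives were other scaling (RLE) and filters, DESeq2 1.42.0, limma-voom (limma 3.58.1), the compared groups alone, a replicate block, marker covariates, a threshold of 0.10 and each library left out. Libraries of the same number in FSL vehicle and non-responders had correlated deviations (0.581, 0.212 and 0.426), and no other groups had all such correlations positive. The labels name no pairing, and libraries of unlike number were not compared, so pairing was not shown. The first value joins FSL vehicle 1 and non-responder 1, the libraries highest in choroid plexus markers. Gene order and promoters come from RefSeq on GRCr8, not the build of the counts.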

Additional observations from a re-analysis of the deposited data

How the results depend on the processing

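Counts of members past the adjusted threshold moved as follows, and the cause was not tested. FSL vehicle against FRL vehicle (0) had 3 with DESeq2 (Ephx1, Ephx2 and Sod3) and 0 to 4 with 1 library left out (4 without FSL vehicle 1: Ephx1, Gpx1, Gpx8 and Gsta4). DESeq2 called 1.32% of the genes it adjusted there. Without FSL vehicle 1, 2.28% of all genes were called, beside 0.0681% with all libraries. Without the choroid-high libraries (FSL vehicle 1 and 3 and non-responder 1), a lone FSL vehicle library is assumed to vary like the other groups. The count in that setting is therefore left out. All FSL-line groups against FRL vehicle (2) had 1 with the replicate block, the choroid plexus covariate, both marker covariates, or without the granule-low libraries (FRL vehicle 2 and responder 1, low in Prox1 and C1ql2 but not Calb1), and 0 to 2 with 1 library left out (0 without FRL vehicle 1 or 2, 1 without FRL vehicle 3 or non-responder 1 or 3). Responders against FSL vehicle (0) had 3 with DESeq2 (Ephx1, Gstm2 and Sod3) and 0 to 4 with 1 library left out (4 without FSL vehicle 1). In that comparison DESeq2 called 1.44% of the genes it adjusted. Without FSL vehicle 1, 2.94% of all genes were called in it, beside 0% with all libraries. The count without the choroid-high libraries is left out for the same reason. Non-responders against FRL vehicle (1) had 2 with DESeq2 or the compared groups only, 0 with the replicate block, the choroid plexus covariate, both covariates or without the granule-low libraries, and 0 to 1 with 1 library left out (1 without FRL vehicle 3). Responders against FRL vehicle (2) had 0 with the compared groups only, the replicate block, the choroid plexus covariate, or without the choroid-high or the granule-low libraries, 1 with both covariates, and 0 to 1 with 1 library left out (1 without responder 1). For non-responders against FRL vehicle, DESeq2 called 0.178% of the genes it adjusted, and the compared groups only had 0.0786% of all genes. Non-responders against FSL vehicle and responders against non-responders had 0 in every setting run. That included the replicate block that pairs FSL vehicle with non-responders by number. The block changed no other call than those named. Gstm2 in FSL vehicle against FRL vehicle turned to -0.31 with the meningeal covariate and -0.26 with both covariates. In responders against FSL vehicle, Ephx2 turned to 0.62, Gpx1 to 0.11 and Gsta4 to 0.0013 with both covariates. Of the members of smallest p in the comparisons of FSL vehicle, all FSL-line groups and the LAC groups, and those called against FRL vehicle, none turned sign. For these, 15 values newly passed and 44 lost the threshold, all 44 being Ephx2 or Gstm4 against FRL vehicle. A threshold of 0.10 changed no count. The marker exclusions, both covariates together and the block on 2 groups were chosen after seeing the data. For all FSL-line groups against FRL vehicle the compared groups are all libraries, so that setting was not run. Ephx2, at 8 to 22 reads per FSL-line library, is limited by depth.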
